A study of Homo sapiens with 6 samples.

Results

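The STAT factors and the SOCS inhibitors of the JAK-STAT pathway were followed in MCF10DCIS.com cells, a human breast cancer cell line that forms basal-like ductal lesions, after silencing of WDR5, a subunit of the complexes that methylate histone H3 at lysine 4. The family was taken as the rows of the deposited gene count table that carry the symbols STAT2, STAT3, STAT5A, STAT5B, STAT6, SOCS1, SOCS2, SOCS3 and CISH, which gave 9 of the 26334 genes in the table. The series compared 3 libraries of cells with a hairpin against luciferase (shLuc, the control) and 3 of cells with hairpins against WDR5 (shWDR5), which the study's methods give as a pool of 2 hairpins. Both groups carried a lentiviral pRSI vector with a U6 promoter for the hairpin and TagRFP and puromycin resistance under the UbiC promoter, were selected with puromycin at 3 µg/ml, and grew in DMEM/F12 with 5% horse serum, 2 mM glutamine, 10 mM HEPES and 1.05 mM CaCl2, so the control cells shared the vector, the selection and the medium. Polyadenylated RNA was sequenced, and the labels do not say that the libraries of a group came from separate cultures. The study's methods state in general that its data are from biological triplicates, without naming these libraries, so p-values measure the spread between these libraries, which may be in part technical.

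Cytokines bind receptor chains that carry JAK kinases, and the activated kinases phosphorylate STAT proteins, which pair, enter the nucleus and bind DNA. The SOCS proteins and CIS, the product of CISH, are themselves induced by STATs and close a negative feedback loop by blocking the kinases, by competing for receptor sites or by bringing an elongin and cullin ubiquitin ligase to their partners. In mammary epithelium STAT5A and STAT5B carry the prolactin signal for milk protein genes, STAT6 the signal of IL-4 and IL-13, and STAT3 the signal of LIF and IL-6, known for its part in involution and in breast cancer cells.

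STAT dimers bind a palindrome known as the gamma-activated site, whose core reads TTCNNNGAA and is the same on both strands. RefSeq promoter windows, which run from 250 bases before to 50 bases after a transcription start, were found for 8 of the 9 genes, all but SOCS2 (11 windows, several for STAT5A and SOCS3). The CISH and SOCS1 sequences printed below are on the minus strand of GRCh38.p14, and positions are counted from the transcription start. The CISH window is shown because it held 4 copies of this core, which are in capitals, whereas no window of STAT2, STAT3, STAT5A, STAT5B, STAT6, SOCS1 or SOCS3 held any. Bases outside the windows were not searched. For SOCS3 the windows were chr17:78359618-78359917 and chr17:78360876-78361175, so the stretch between them was not covered. The bases before the start in the first of these overlapped an annotated SOCS3 exon. Whether the start of the counted SOCS3 gene lies in the uncovered stretch was not tested. The absence of a copy at SOCS3 therefore holds for these windows only. The first line below is the distal pair of copies (chr3:50611991-50612020, positions -246 to -217), which overlaps a MAPKAPK3 exon annotated on the other strand, the second is the proximal pair (chr3:50611832-50611907, positions -133 to -58), outside annotated exons, and the third is the stretch at the same positions of SOCS1 (chr16:11256262-11256337), which held no copy and is shown for comparison.
CISH distal pair: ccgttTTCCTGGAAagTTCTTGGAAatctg
CISH proximal pair: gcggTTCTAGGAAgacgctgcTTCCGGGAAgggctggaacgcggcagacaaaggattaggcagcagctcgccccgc
SOCS1 same positions: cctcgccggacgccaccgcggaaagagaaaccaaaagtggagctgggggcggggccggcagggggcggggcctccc

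The CISH copies began at positions -241, -230, -129 and -112. Of 35116 windows of 300 bases in the RefSeq table, 2689 (7.66%) held TTCNNNGAA at least once, and 7 (0.0199%) held 4 or more. The form with a spacer longer by a base, TTCNNNNGAA, which STAT6 is known to prefer, was in 6.44% of windows. Among the family it was found once, at position -229 of a STAT5A window (TTCCTCTGAA, plus strand of GRCh38.p14). These matches describe letters in the windows and are not binding measurements.

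WDR5 itself was lower in every shWDR5 library. Its level was 52.6, 48.5 and 51.3 CPM (counts relative to library size, scaled by TMM, the normalization of edgeR that evens out library composition) in shLuc and 23.4, 24.4 and 20.8 in shWDR5, a 2.22-fold fall (log2 fold change -1.15, SE 0.07, edgeR adjusted p = 1.86e-07). Libraries held 38218108 to 57640167 counts, and the 10 most abundant genes took 5.74% to 6.09% of the counts in shLuc and 7.67% to 8.16% in shWDR5. A gene was called at an adjusted p (edgeR quasi-likelihood test, Benjamini-Hochberg over all 16117 tested genes) below 0.05, and 56.5% of all tested genes were called (26.6% higher and 29.9% lower in shWDR5), so a call alone set no gene apart in this comparison. The 10 markers listed for basal epithelium, which include CDH1 and EPCAM, genes not particular to basal cells, were all expressed. Their summed level per length moved with the groups (3244 to 3608 RPKM, CPM per kilobase of merged exons, in shLuc and 5373 to 6159 in shWDR5). Of the 10, 8 were higher and 2 lower. The lower ones were CDH1 (103 to 50.3 RPKM, log2 fold change -1.03) and EPCAM (165 to 131 RPKM, -0.33). Of the 4 luminal markers 2 were lower and PGR had 0 to 2 counts. Marker sums of other cells were low, at 3.72 to 4.04 against 2.54 to 3.04 RPKM for 6 fibroblast genes, 1.75 to 1.87 against 1.15 to 1.30 for 4 endothelial genes and 0.868 to 1.2 against 0.851 to 1.05 for 5 leukocyte genes, with 1 of the 6, 1 of the 4 and 1 of the 5 called lower and 1 leukocyte gene called higher. COL1A2, COL3A1 and DCN had at most 4 counts, CD3E had 0 and PTPRC at most 7 in any library. The called genes of these lists were measurable. COL1A1 made up most of the fibroblast sum and fell from 3.72 to 2.63 RPKM. PECAM1 fell from 1.46 to 0.891 RPKM and CD14 from 0.905 to 0.439, whereas ITGAM rose from 0.123 to 0.494. The part of the basal marker shift in the values below was not tested, and in bulk RNA fewer cells of a type and less RNA per cell cannot be told apart.

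Of the 9 genes, 5 fell and 1 rose in shWDR5. CISH and SOCS2 fell by more than any other member, to less than 45% of their shLuc level, and STAT5A, SOCS3 and STAT5B fell by smaller amounts. SOCS1, which had few counts, rose, with a call kept in only 5 of 13 alternative ways of processing. STAT2, STAT3 and STAT6, the most abundant of the 5 STAT genes, did not pass the test. All 9 genes passed the filter on low counts, and the 6 calls stand beside 56.5% of all tested genes called. The median log2 fold change was -0.38 over the 9 genes and -0.01 over all tested genes. With an absolute log2 fold change of at least 0.6 also required, which 22.9% of tested genes met, STAT5A, SOCS2 and CISH were called, all lower. In 8 of the 9 genes the CPM values of the groups did not overlap, as in 62.3% of all tested genes.

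**Figure D1:**
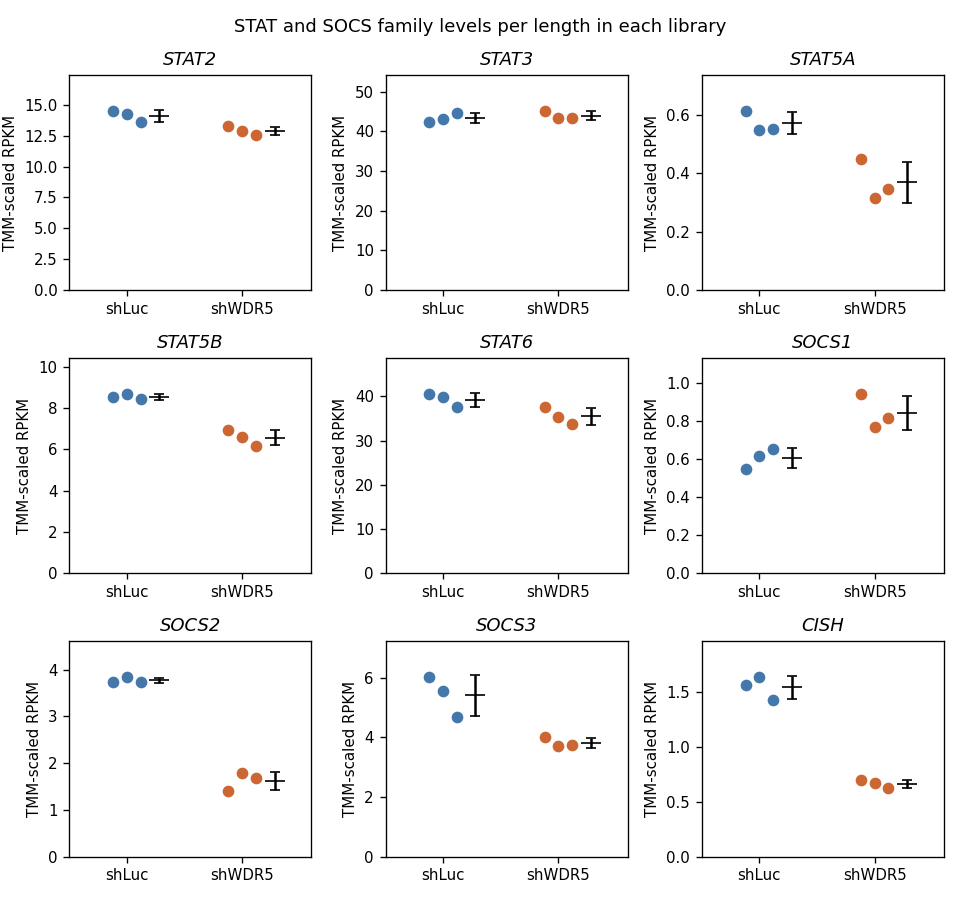
Each panel plots one gene, with its TMM-scaled RPKM (CPM per kilobase of merged exons) in the 3 shLuc and 3 shWDR5 libraries as points and the mean with SD as a bar beside them, on an axis from 0. STAT3 is the gene whose groups overlap, and SOCS2 and CISH show the widest gap relative to their level.

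Among the inhibitors, CISH encodes CIS, which is induced by STAT5 and occupies receptor sites that STAT5 would use. CISH (chr3:50643885-50649262 in hg19, minus strand) had 175, 144 and 131 counts in shLuc and 73, 86 and 64 in shWDR5. Per length that was 1.56, 1.64 and 1.43 RPKM against 0.695, 0.667 and 0.622. All 3 shLuc libraries were more than 2-fold above every shWDR5 library, and the spread within either group was narrow beside that gap. CISH fell by 1.22 on the log2 scale (SE 0.12, 95% interval -1.48 to -0.96, edgeR adjusted p = 4.84e-06), which is 2.33-fold. Only 2.44% of tested genes had a lower log2 fold change.

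SOCS2, a regulator of growth hormone receptor signaling and likewise a known STAT5-induced gene, showed a fall of nearly the same size at a higher level. SOCS2 (chr12:93963598-93970521, plus strand) measured 3.74, 3.84 and 3.74 RPKM in shLuc and 1.41, 1.78 and 1.69 RPKM in shWDR5. The shLuc libraries lay close together, and the lowest of them was more than 2-fold above the highest shWDR5 library. The log2 fold change was -1.21 (SE 0.092, 95% interval -1.41 to -1.01, edgeR adjusted p = 6.87e-07), a 2.32-fold fall. A log2 fold change of -1 or lower with a call was seen in 4.27% of all tested genes, and SOCS2 and CISH were the 2 members to reach it.

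SOCS3 binds gp130 and JAK kinases and ends STAT3 signaling by IL-6 and LIF. SOCS3 (chr17:76352858-76356160, minus strand) was at 6.03, 5.55 and 4.67 RPKM in shLuc and 4.01, 3.70 and 3.74 RPKM in shWDR5. Among SOCS1, SOCS2, SOCS3 and CISH it had the highest level per length in both groups. The groups did not overlap, although shLuc replicate 3 stood closer to the shWDR5 libraries than its fellows did. The level fell 1.42-fold (log2 fold change -0.51, SE 0.096, 95% interval -0.72 to -0.30, edgeR adjusted p = 0.000765).

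SOCS1 blocks JAK kinases directly and is the main brake on interferon signaling. SOCS1 (chr16:11348274-11350039, minus strand) had 33, 29 and 32 counts in shLuc and 53, 53 and 45 in shWDR5, the fewest of the 9 genes. Per length the level was 0.549, 0.615 and 0.652 RPKM in shLuc against 0.941, 0.767 and 0.816 in shWDR5. Every shWDR5 library was above every shLuc library, so the direction was opposite to that of the other 3 inhibitors. The rise was 1.39-fold (log2 fold change 0.47, SE 0.18, 95% interval 0.079 to 0.87, edgeR adjusted p = 0.0414). The call did not hold in 8 of 13 alternatives judged by the adjusted p: it was lost with DESeq2 (adjusted p = 0.146), with total-count scaling (0.0630), with no filter (0.0655) and when shLuc replicate 1 (0.123), shLuc replicate 2 (0.0734), shLuc replicate 3 (0.0513), shWDR5 replicate 1 (0.128) or shWDR5 replicate 3 (0.0693) was left out, within a range of adjusted p of 0.0325 to 0.146 and with a positive log2 fold change throughout.

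**Figure D2:**
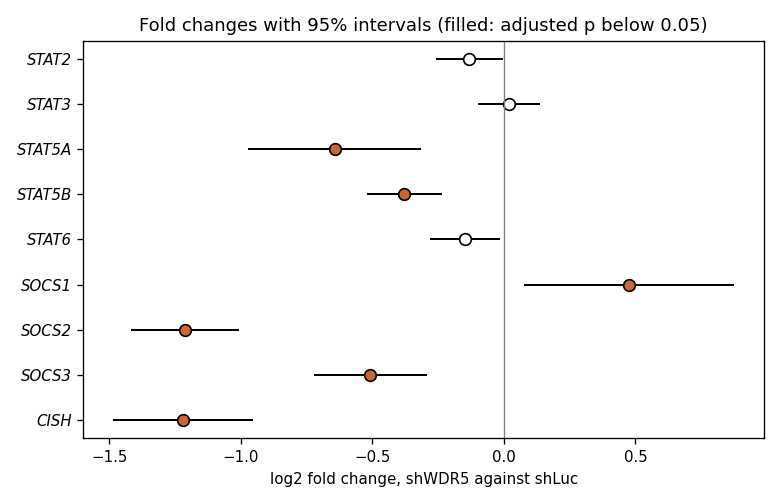
The horizontal axis gives the log2 fold change of shWDR5 against shLuc for each of the 9 genes (edgeR, 3 libraries a group), lines are 95% intervals and filled points have an adjusted p below 0.05. CISH and SOCS2 sit near -1.2 with intervals that do not reach those of STAT5B or SOCS3, and SOCS1 is the filled point on the right of 0.

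None of the 5 STAT factors rose, STAT5A and STAT5B fell, and the median log2 fold change of the 5 was -0.15, against -0.86 for SOCS1, SOCS2, SOCS3 and CISH together. The difference between these medians was not tested, and STAT5A (-0.64) had a larger change than SOCS3 (-0.51) or SOCS1 (0.47).

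STAT5A and STAT5B are neighbouring genes on chromosome 17 that encode closely related proteins, the transducers of prolactin, growth hormone and IL-2 family signals. STAT5A (chr17:40439565-40463960, plus strand) had 136, 95 and 100 counts in shLuc and 93, 80 and 70 in shWDR5. Its level was 0.613, 0.546 and 0.552 RPKM in shLuc and 0.447, 0.314 and 0.344 RPKM in shWDR5, with no overlap and with shWDR5 replicate 1 the closest to the controls. STAT5A fell 1.56-fold (log2 fold change -0.64, SE 0.15, 95% interval -0.97 to -0.32, edgeR adjusted p = 0.00297).

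STAT5B (chr17:40351195-40428424, minus strand) was the more abundant of the pair, at 8.53, 8.68 and 8.42 RPKM in shLuc and 6.93, 6.62 and 6.17 RPKM in shWDR5. The shLuc libraries were tightly grouped and all above the shWDR5 libraries. The fall was 1.30-fold (log2 fold change -0.38, SE 0.064, 95% interval -0.52 to -0.24, edgeR adjusted p = 0.000333), and the 95% intervals of STAT5A and STAT5B overlapped. How reads that match both STAT5 genes were counted is not given in the sources used here, so reads of their similar stretches may have been split between them or dropped.

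STAT3 was the most abundant member. STAT3 (chr17:40465343-40540513, minus strand) measured 42.3, 43.2 and 44.7 RPKM in shLuc and 45.2, 43.4 and 43.4 RPKM in shWDR5, and the groups overlapped. The log2 fold change was 0.02 (SE 0.052, edgeR adjusted p = 0.773), and its 95% interval, -0.094 to 0.13, excluded the size of change measured for any of the 5 genes that fell. Its sign turned with total-count scaling and when shWDR5 replicate 1 was left out (-0.038 and -0.00053), with no call in either.

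STAT6, which acts downstream of IL-4 and IL-13, stood next in level. STAT6 (chr12:57489187-57505196, minus strand) was at 40.6, 39.8 and 37.5 RPKM in shLuc and 37.5, 35.3 and 33.7 RPKM in shWDR5. The lowest shLuc and the highest shWDR5 library were equal at this precision, and the other libraries were apart. The log2 fold change of -0.15 (SE 0.059, 95% interval -0.28 to -0.018) missed the threshold (edgeR adjusted p = 0.0513). STAT6 was called lower with total-count scaling (adjusted p = 0.00863), with no filter (0.0422), and without shLuc replicate 3 (log2 fold change -0.18, adjusted p = 0.0283) or shWDR5 replicate 1 (-0.19, 0.0229), over a range of 0.00419 to 0.192 in its alternatives. Its exons share 73 bases (1.71% of its counted length) with NAB2 on the other strand, by the exon positions given with the deposited counts. The library kit does not mark strand. None of the other 8 genes shared exon bases with a neighbour.

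STAT2 joins IRF9 in ISGF3, the factor that carries type I interferon signals. STAT2 (chr12:56735382-56754037, minus strand) was at 14.5, 14.2 and 13.6 RPKM in shLuc and 13.3, 12.8 and 12.6 RPKM in shWDR5. The shWDR5 libraries were all below the shLuc libraries by a small margin. The log2 fold change was -0.13 (SE 0.057, 95% interval -0.26 to -0.0079, edgeR adjusted p = 0.0662), short of a call. STAT2 was called lower with total-count scaling (adjusted p = 0.0108) and without shLuc replicate 3 (log2 fold change -0.16, adjusted p = 0.0423), over a range of 0.0108 to 0.222.

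**Figure D3:**
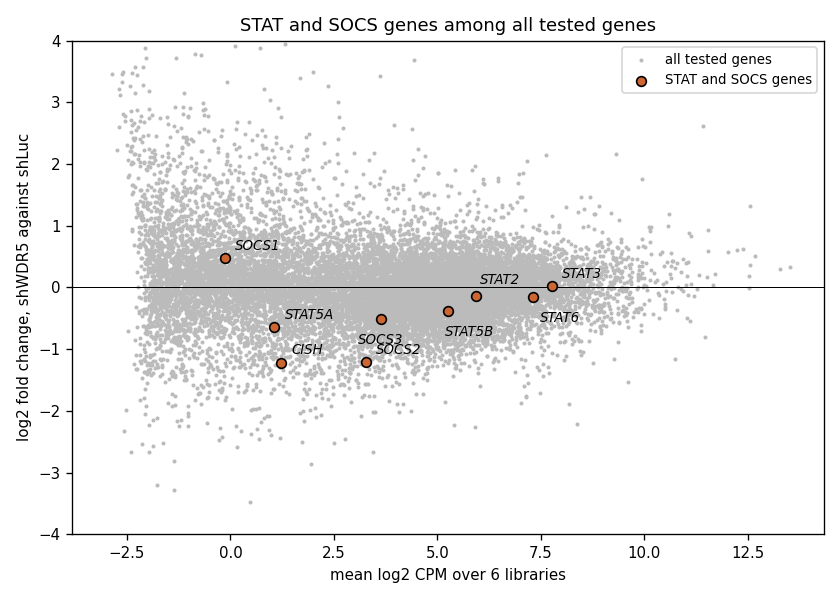
The vertical axis gives the log2 fold change of shWDR5 against shLuc and the horizontal axis the mean log2 CPM over the 6 libraries, with all tested genes in grey and the 9 STAT and SOCS genes in orange; 8 genes beyond 4 on the log2 scale lie outside the axis. SOCS2 and CISH lie below most tested genes, and STAT2, STAT3 and STAT6 near 0 among the abundant genes.

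Ordered by mean level per length, the genes ran from STAT3 through STAT6, STAT2, STAT5B, SOCS3 and SOCS2 in both groups. In shLuc they were followed by CISH (1.54 ± 0.104 RPKM, SD, n = 3), SOCS1 (0.605 ± 0.0521) and STAT5A (0.570 ± 0.0372), and the last pair was the one whose ranges overlapped. In shWDR5 SOCS1 (0.841 ± 0.0897 RPKM) stood above CISH (0.661 ± 0.0365) and STAT5A (0.368 ± 0.0701), and no neighbours in the order overlapped. SOCS1 and CISH thus changed places between the groups. The 5 STAT genes together made 105 to 107 RPKM in shLuc and 96.2 to 103 in shWDR5, whereas the 4 inhibitors made 10.5 to 11.9 RPKM in shLuc and 6.87 to 7.06 in shWDR5, with no overlap in either sum.

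Within the inhibitors the composition of that sum differed between the groups. SOCS3 made up 47.6% ± 3.11 (SD, n = 3) of the 4 genes' RPKM in shLuc and 54.9% ± 1.74 in shWDR5. The share of SOCS2 was 33.4% ± 2.1 against 23.4% ± 3.07, and that of CISH 13.6% ± 0.459 against 9.52% ± 0.405. SOCS1 held 5.37% ± 0.798 in shLuc and 12.1% ± 1.13 in shWDR5. Among the STAT genes STAT3 took 41.0% ± 1.52 and 44.3% ± 0.724, STAT6 37.1% ± 1.16 and 35.7% ± 0.639, and STAT5B 8.06% ± 0.0817 and 6.61% ± 0.174. These shares are descriptions and were not tested.

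The genes most like CISH across the 6 libraries, by the root mean square difference of centred log2 CPM, were RPAP1 (0.0355), MCM5 (0.0369) and MEGF6 (0.0370). Their log2 fold changes were -1.22, -1.24 and -1.18, against -1.22 for CISH. This closeness follows from choosing the genes by likeness over the same 6 libraries.

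The other genes of the pathway were read from lists arranged by role, with 85 of 117 listed symbols tested. Of these, 28 were higher, 28 lower and 29 not called, beside 26.6% higher and 29.9% lower among all tested genes, and their median log2 fold change was 0.03. Of the ligands 14 of 31 were tested, with 5 higher and 6 lower (median -0.12). LIF, which signals through gp130 to STAT3, was the most abundant ligand and rose from 392 ± 18.0 to 515 ± 28.6 RPKM (log2 fold change 0.39, SE 0.060, edgeR adjusted p = 0.000153). CSF3, the granulocyte growth factor, had 12, 9 and 6 counts in shLuc and 180, 247 and 167 in shWDR5, an 18.7-fold rise (edgeR adjusted p = 1.89e-08). CSF2 (log2 fold change 1.68) and IL6 (0.76) also rose, and IL20 (-1.26), CTF1 (-1.13) and IL15 (-1.09) fell, with edgeR adjusted p from 5.92e-08 to 0.011.

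Receptor chains were tested for 28 of 40 genes, with 6 higher and 10 lower (median 0.04), beside 26.6% higher and 29.9% lower among all tested genes. IL7R, a receptor chain that signals through STAT5, measured 24.2, 24.9 and 25.3 RPKM in shLuc and 8.0, 8.72 and 7.94 in shWDR5, a 3.02-fold fall (edgeR adjusted p = 6.01e-09). EPOR, the erythropoietin receptor and a STAT5 activator, fell at a low level (0.942 to 0.297 RPKM, log2 fold change -1.67, SE 0.17). So did IL22RA1 (0.411 to 0.118 RPKM, -1.78, SE 0.25). The 12 receptor genes not tested, IL2RG and CRLF2 among them, had at most 2 counts in any library. IL20RB (log2 fold change 0.77), the IL-6 receptor chain IL6R (0.53) and IFNGR2 (0.23), the most abundant chain at 57.6 and 67.4 RPKM, rose. IL6ST, which encodes the shared chain gp130, rose from 11.4 ± 1.94 to 17.7 ± 3.2 RPKM (log2 fold change 0.63, edgeR adjusted p = 0.0171), a call lost with no filter on low counts (adjusted p = 0.0671, range over the alternatives 1.12e-06 to 0.0671). LIFR, a receptor of LIF, fell from 1.22 ± 0.157 to 0.785 ± 0.101 RPKM (log2 fold change -0.63, edgeR adjusted p = 0.000782). Of the 4 JAK kinases, TYK2 (23.4 to 31.2 RPKM, log2 fold change 0.41) and JAK2 (1.39 to 1.98 RPKM, 0.51) rose, JAK1 fell (22.4 to 19.4 RPKM, -0.21), and JAK3 was at 0.302 and 0.280 RPKM (edgeR adjusted p = 0.502).

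**Figure D4:**
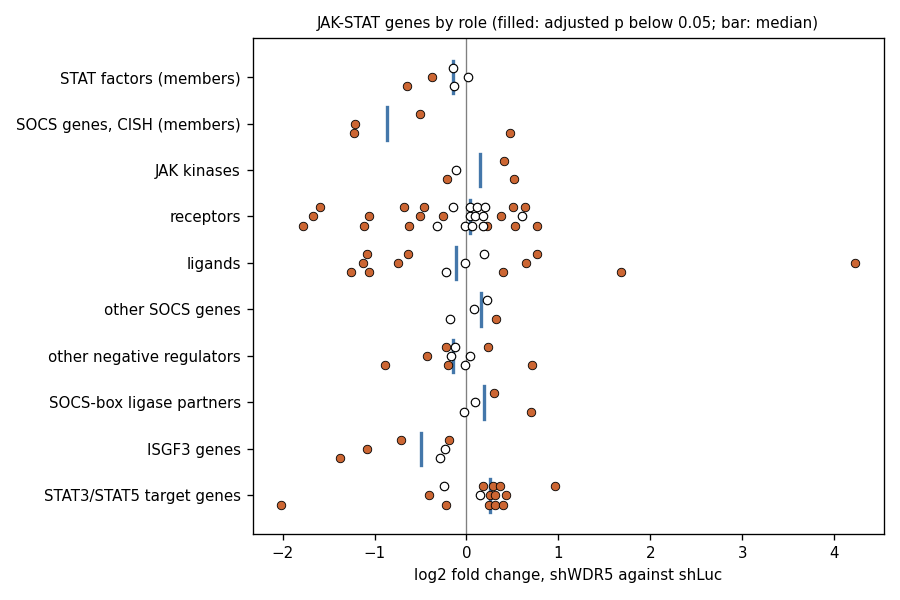
Each point is a tested gene at its log2 fold change of shWDR5 against shLuc on the horizontal axis, in rows by role, filled where the adjusted p is below 0.05, with the median of each row as a blue bar. The row of SOCS1, SOCS2, SOCS3 and CISH has the lowest median (-0.86), and the ligand row holds CSF3 at 4.23.

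Among SOCS4, SOCS5, SOCS6 and SOCS7, the more distant relatives of SOCS1 to SOCS3, 1 gene was called higher and none lower. SOCS7 rose from 5.63 ± 0.158 to 7.03 ± 0.378 RPKM (log2 fold change 0.32, edgeR adjusted p = 0.000864), and SOCS4 (0.09), SOCS5 (-0.18) and SOCS6 (0.23) did not pass the test (edgeR adjusted p = 0.754, 0.101 and 0.112). Of the partners through which a SOCS box recruits a ubiquitin ligase, CUL5 rose from 4.46 ± 0.586 to 7.24 ± 1.07 RPKM (log2 fold change 0.70, edgeR adjusted p = 0.00146), while elongin C (TCEB1, -0.03) and RNF7 (0.09) did not pass. Elongin B (TCEB2, 0.30, edgeR adjusted p = 0.0152) was called, but its groups overlapped and the call was lost without shLuc replicate 2 (log2 fold change 0.24, adjusted p = 0.0674) or shLuc replicate 3 (0.25, 0.0807), within a range of 3.58e-05 to 0.0807 over its alternatives. Of 10 other negative regulators 2 were higher and 4 lower. The counts in these lists stand beside 26.6% higher and 29.9% lower among all tested genes. The largest fall was that of SH2B3 (5.58 to 3.01 RPKM, log2 fold change -0.89), an adaptor that restrains JAK2, and the largest rise that of PIAS2 (3.38 to 5.52 RPKM, 0.71), a SUMO ligase of STATs.

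The genes that STATs are known to switch on moved in both directions. Of 15 tested targets of STAT3 and STAT5, 10 were higher and 3 lower (median 0.26), beside 26.6% higher and 29.9% lower among all tested genes. PIM1, a kinase gene induced by STAT5 as CISH is, measured 12.6, 13.4 and 11.3 RPKM in shLuc and 3.12, 3.23 and 2.85 in shWDR5, a 4.04-fold fall (log2 fold change -2.02, SE 0.086, edgeR adjusted p = 1.52e-08). The survival genes MCL1 (-0.41) and BCL2L1 (-0.22) fell, and SERPINA3 (0.97), an acute phase gene, CEBPD (0.43) and PIM2 (0.39) rose. Of 6 genes of the ISGF3 list, which holds IRF9 and interferon-induced genes, 4 were lower and none higher (median -0.50), beside the same shares. OAS1 fell from 6.02 ± 0.763 to 2.32 ± 0.326 RPKM and IFIT3 from 2.22 ± 0.169 to 1.05 ± 0.0574 RPKM (edgeR adjusted p = 2.14e-06 and 3.37e-06), and IFIT1 (-0.29) and ISG15 (-0.23) did not pass.

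The other 2 calls in the ISGF3 list were less stable. IRF9, the DNA-binding partner of STAT2, was at 8.31 ± 0.523 and 7.29 ± 0.132 RPKM (log2 fold change -0.19, edgeR adjusted p = 0.0474). Its call was lost without shLuc replicate 1 (adjusted p = 0.165) or 2 (0.126), without shWDR5 replicate 1 (0.0975), 2 (0.115) or 3 (0.0787), with DESeq2 (0.130), with upper-quartile scaling (0.114), with no filter (0.0517) and with the RPKM filter (0.0635), and its adjusted p ran from 0.0135 to 0.165. MX1, an antiviral GTPase gene at 0.203 and 0.124 RPKM (log2 fold change -0.71, edgeR adjusted p = 0.0282), lost its call with DESeq2 (adjusted p = 0.0944) and without shLuc replicate 3 (0.101), shWDR5 replicate 2 (0.106) or shWDR5 replicate 3 (0.0880), over a range of 0.00965 to 0.106.

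STAT5A, STAT5B, SOCS2, SOCS3 and CISH kept their call and direction in all 13 alternatives judged by the adjusted p alone, from another test to leaving out each library. Under the rule that also requires an absolute log2 fold change of at least 0.6, STAT5B (-0.38) and SOCS3 (-0.51) were not called. Their log2 fold changes ran from -0.80 to -0.53 for STAT5A, from -0.44 to -0.34 for STAT5B, from -1.29 to -1.12 for SOCS2, from -0.61 to -0.41 for SOCS3 and from -1.28 to -1.18 for CISH. The highest adjusted p of these 5 genes in any alternative was 0.0182, for STAT5A. The number of the 9 genes called ran from 5 to 8 in those 13 alternatives and was 3 under that rule. With total-count scaling it was 0 higher and 7 lower, against 1 higher and 5 lower with TMM, and over all tested genes that scaling gave 3705 higher and 5480 lower, against 4292 and 4811.

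**Figure D5:**
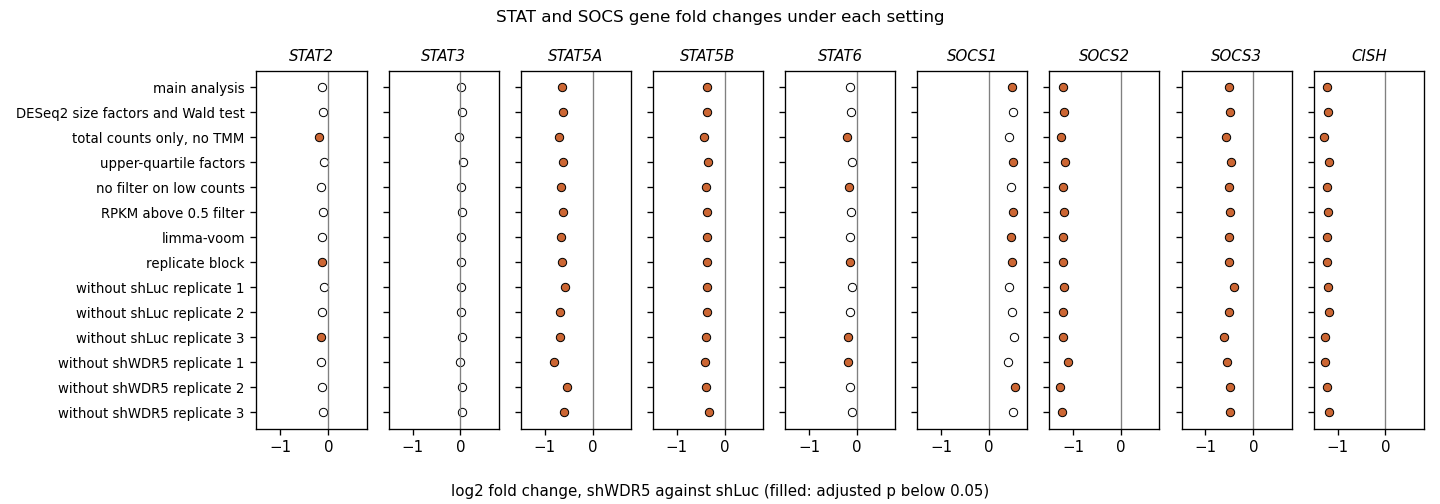
Each panel plots one gene, with the log2 fold change of shWDR5 against shLuc on the horizontal axis and one row for each way of processing, including each library left out, filled where the adjusted p is below 0.05. STAT5A, STAT5B, SOCS2, SOCS3 and CISH are filled and left of 0 in every row, and SOCS1 is right of 0 throughout but filled in 6 of 14 rows.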

How the data were processed

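RNA-seq of 3 shLuc and 3 shWDR5 libraries of MCF10DCIS.com cells was analysed from the deposited table of raw counts per gene. Per the labels and the submitters' processing notes, the authors aligned reads to hg19 (GRCh37) with TopHat2 2.1.0 and counted them per gene with featureCounts (version not given in the sources used here); the notes also name edgeR 3.2.2. A deposited table of the authors' own comparison (fold changes, mean expression, test statistics and p-values) was not used.

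Counts were fitted without covariates by the quasi-likelihood test of edgeR 4.0.16 in R 4.3.3 with TMM factors, filterByExpr (16117 of 26334 genes kept) and Benjamini-Hochberg adjustment over all tested genes. SE was the log2 fold change over the root of its F value. CPM used TMM-scaled library sizes (totals of 38218108 to 57640167 counts), and RPKM divided it by the merged exon length in the table. The scripts were tested on simulated data. DESeq2 1.42.0, limma-voom (limma 3.58.1), other scalings and filters, a replicate block, and leaving out each library were alternatives; a call rule with an absolute log2 fold change of 0.6 was another.

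The STAT, SOCS and pathway lists were chosen with earlier results of these data known. All 9 genes and WDR5 were named, with every gene of lists with 6 or fewer measured genes, the 3 called genes with the largest rise and fall of longer lists, the most abundant ligand, receptor and kinase, and the 3 genes most like the called member with the largest change. IL2RG, CRLF2 and LIFR were named after their values were seen. Motifs were searched in RefSeq windows of GRCh38.p14, whose coordinates are separate from the hg19 gene positions. Python 3.11.15, pandas 2.3.3 and matplotlib 3.10.9 were used for sequences and plots.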

Additional observations from a re-analysis of the deposited data

How the results depend on the processing

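Each of the 9 genes was recomputed under 13 alternatives, giving 117 values: 99 kept direction and side of the threshold, 8 gained a call, 8 lost one and 2 turned sign. STAT3 turned sign with total-count scaling (-0.038) and without shWDR5 replicate 1 (-0.00053), and ran to 0.039 without shLuc replicate 3. SOCS1 lost its call with DESeq2 (log2 fold change 0.49), total-count scaling (0.42) and no filter (0.46), and its values with a library left out ran from 0.39 to 0.54. STAT2 gained a call with total-count scaling (-0.19) and the replicate block (-0.13, adjusted p = 0.0126), and ran from -0.16 to -0.10 with a library left out. STAT6 gained one with total-count scaling (-0.20), no filter (-0.16) and the replicate block (-0.15, adjusted p = 0.00419), and ran from -0.19 to -0.11. The cause was not tested. With an absolute log2 fold change of at least 0.6 required, calls went from 9103 to 3684 over all tested genes, from 6 to 3 for the 9 genes and from 56 to 27 for the pathway lists, because fewer genes can pass both limits. SOCS4 turned sign without shLuc replicate 1 (-0.04) and without shWDR5 replicate 3 (-0.050), with up to 0.26 without shWDR5 replicate 1, and TCEB1 with upper-quartile scaling (0.0088), without shLuc replicate 1 (0.015) and without shLuc replicate 3 (0.0093), none of them called. With a replicate block 10430 genes were called, and 8 of the 9 genes. The labels do not say whether shared replicate numbers pair the samples. Deviations of same-numbered libraries correlated at 0.372, 0.0358 and 0.116. Replicates 1 and 3 of shLuc correlated best with the same number in shWDR5, and shLuc replicate 2 correlated best with shWDR5 replicate 3 (0.210). SOCS1, STAT5A and CISH, with at most 175 counts in any library, are the members whose precision is most limited by depth.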

Other observations

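STAT4, the transducer of IL-12, was also measured and is given here after its values were seen. It was at 3.63, 3.28 and 3.35 RPKM in shLuc and 4.88, 5.90 and 5.50 RPKM in shWDR5, with no overlap between the groups. It rose 1.59-fold (log2 fold change 0.67, SE 0.087, edgeR adjusted p = 4.73e-05), a direction opposite to that of STAT5A and STAT5B, and it was called in all 13 alternatives.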
